A study of Mus musculus with 4 samples.

Results

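The cytochrome P450 genes of the mouse were described in kidney RNA from mice given immune complexes and mice given saline. Members were the 89 genes, of 38924 listed, whose symbol is Cyp followed by a family number, subfamily letters and a gene number, without the vitamin D hydroxylases Cyp24a1 and Cyp27b1. The rule used symbols and no measured value, and it leaves out Cyp51, Cyp4a12a, Cyp4a12b, Cyp3a41a, Cyp3a41b and the pseudogenes, whose names end differently. All mice were female CB-17 SCID animals on a Balb/c background, a strain without functional B and T cells, so both groups lacked their own antibodies. The treated mice received preformed complexes of IgG autoantibody with galactose-deficient IgA1, the antigen of IgA nephropathy, and the controls received saline, both through the tail vein in 3 doses within 7 days, with kidney taken 1 day after the last dose. Each group had 2 libraries. The labels give no age and do not say whether each library is its own animal, so the spread behind every p-value is that of these 4 samples and may be technical. Libraries held 22791960 and 21681408 reads assigned to genes in the immune complex group and 19675879 and 20950134 in the saline group.

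Cytochrome P450 enzymes are haem proteins that insert an oxygen atom into drugs, fatty acids, steroids, retinoids and vitamin D. Most sit in the endoplasmic reticulum and take electrons from NADPH through the reductase Por, and a few sit in mitochondria and take them through adrenodoxin. In the kidney they are found above all in the proximal tubule, where enzymes of the Cyp4a, Cyp2j and Cyp2c subfamilies turn arachidonic acid into mediators of vascular tone and salt transport, and where Cyp2e1 oxidises ethanol, acetone and paracetamol.

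The member that stood furthest apart between the groups was Cyp2e1, on the plus strand of chr7:140763739-140774975 (GRCm38). It stood at 404.3 and 516.2 CPM, reads scaled to library size, in the immune complex libraries, against 130.9 and 149.4 CPM in the saline libraries. Both immune complex values lay far above both saline values, and the groups did not overlap. The fold was 3.28, a log2 difference of 1.72 ± 0.21 (SE, n = 2 each), with an adjusted p of 0.381 in edgeR's quasi-likelihood test over 16334 genes, so the difference did not pass the test. The unadjusted p was rank 4 among those genes. Without saline replicate 2 the edgeR adjusted p was 0.00281, and without any other single library it was 0.0511 to 0.429. With DESeq2, which called 0.214% of genes higher and 0.338% lower, the same reads gave an adjusted p of 1.33e-09, and the authors' deposited table gives Cyp2e1 an adjusted p of 3.62e-10, the only member among the 80 genes (0.538% of those with an adjusted p) that it calls. In the authors' deposited table its log2 value is -1.32, coded saline over immune complex. For Cyp2f2 and Cyp26b1 that table gives -0.55 and -0.19, where edgeR gave 1.47 and 1.68 as immune complex over saline. Sizes in that table are therefore not set against those of edgeR.

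Cyp27a1 and Cyp4b1 had the next lowest unadjusted p-values, with differences smaller than those of several members with fewer reads. Cyp4b1, which hydroxylates fatty acids and activates some plant toxins, lies on the minus strand of chr4:115624725-115647709 and stood at 452.5 and 610.9 CPM in immune complex kidneys and at 268.3 and 348.3 CPM in saline kidneys (log2 difference 0.79 ± 0.23, edgeR adjusted p = 0.901). Cyp27a1, the mitochondrial sterol hydroxylase that opens the alternative route to bile acids, lies on the plus strand of chr1:74713574-74737890 and stood at 37.4 and 31.0 CPM against 20.8 and 20.9 CPM in saline kidneys (0.71 ± 0.19, edgeR adjusted p = 0.805). In both genes the immune complex values lay above the saline values without overlap, and neither difference passed the test. The 2 saline values of Cyp27a1 were almost the same, whereas the Cyp4b1 values spread within each group.

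The start regions of these 3 genes and of Cyp2j5, the most abundant member, are shown because they are the promoters of the genes that the levels and the comparison turn on. Each is 300 bases of GRCm38.p6 from RefSeq, 250 before to 50 after the first transcribed base, read in the direction of the gene, with matches to a searched motif in capitals.
Cyp2e1, plus strand of chr7:140763569-140763868: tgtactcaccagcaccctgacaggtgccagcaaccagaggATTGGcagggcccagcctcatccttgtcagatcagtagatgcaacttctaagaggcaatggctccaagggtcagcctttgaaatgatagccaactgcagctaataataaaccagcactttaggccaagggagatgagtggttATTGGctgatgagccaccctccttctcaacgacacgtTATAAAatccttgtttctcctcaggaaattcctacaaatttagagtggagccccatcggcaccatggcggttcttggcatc
Cyp4b1, minus strand of chr4:115647672-115647971: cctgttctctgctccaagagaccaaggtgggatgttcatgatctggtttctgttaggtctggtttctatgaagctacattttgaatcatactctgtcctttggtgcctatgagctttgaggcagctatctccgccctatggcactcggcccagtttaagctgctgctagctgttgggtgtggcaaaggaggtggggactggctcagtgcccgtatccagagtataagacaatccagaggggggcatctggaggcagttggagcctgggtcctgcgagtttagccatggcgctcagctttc
Cyp27a1, plus strand of chr1:74713285-74713584: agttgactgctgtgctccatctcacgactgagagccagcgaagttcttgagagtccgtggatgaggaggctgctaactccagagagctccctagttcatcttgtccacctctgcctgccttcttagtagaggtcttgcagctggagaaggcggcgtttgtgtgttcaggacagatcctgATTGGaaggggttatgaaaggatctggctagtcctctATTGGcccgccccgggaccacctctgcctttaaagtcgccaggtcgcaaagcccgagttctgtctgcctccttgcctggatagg
Cyp2j5, minus strand of chr4:96664070-96664369: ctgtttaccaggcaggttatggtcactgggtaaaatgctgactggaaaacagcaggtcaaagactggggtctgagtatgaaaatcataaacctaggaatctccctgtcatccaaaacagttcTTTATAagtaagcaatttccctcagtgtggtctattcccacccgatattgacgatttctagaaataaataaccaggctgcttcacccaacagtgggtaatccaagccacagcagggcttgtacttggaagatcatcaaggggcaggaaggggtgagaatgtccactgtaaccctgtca

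Of the 89 members, 70 had such a window, and these held 80 windows. Both strands were searched for the TATA box as TATAAA, the CCAAT box as CCAAT, the binding letters of HNF4 as CAAAGTCCA, the D-box of clock factors as TTATGTAA and the xenobiotic response element as TNGCGTG. The Cyp2e1 window held a TATA box at -31 to -26 and 2 CCAAT boxes on the opposite strand. The Cyp27a1 window held 2 CCAAT boxes, also on the opposite strand, and the Cyp2j5 window held TATAAA on the opposite strand at -128 to -123. In the Cyp4b1 window these letters were not found. Over the members' windows TATAAA was present in 40.0% and CCAAT in 46.3%, against 13.6% and 37.4% of 32851 windows of all genes. The HNF4 letters were in 11.3% of the members' windows and 0.475% of all windows, in Cyp3a and Cyp2c genes and Cyp8b1, with at most 42 reads in any library. The xenobiotic element was in 1.25% against 5.07% and the D-box in 0% against 0.938%. Many members lie in clusters of duplicated genes and share their start regions, so their windows are not independent, and 1 pair of different motifs overlapped, a CCAAT box and the HNF4 letters in Cyp2c68. A match is a description of letters and not a binding site.

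Transcripts of the members, without the P450 genes outside the rule, made up 0.377% and 0.460% of gene reads in the immune complex libraries. In the saline libraries they made up 0.321% and 0.355%. The 95% Wilson intervals, which cover counting error only, were 0.375% to 0.380% and 0.458% to 0.463% in the immune complex libraries and 0.318% to 0.323% and 0.352% to 0.357% in the saline libraries. Without Cyp2e1 the shares were 0.337% and 0.410% in immune complex kidneys against 0.307% and 0.340% in saline kidneys, where the groups overlapped. Cyp2e1 itself took 10.5% and 10.9% of the members' reads in immune complex kidneys and 4.22% and 4.25% in saline kidneys.

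Levels between genes are compared per exon length, as the authors' RPKM, which scales reads to exon length and library size. They spanned several orders of magnitude, with 6 members at a mean of at least 100 RPKM, 7 from 10 to 100, 20 from 1 to 10 and 51 below 1, while 5 had no read in any library. Those 5 were Cyp7a1, the rate-limiting enzyme of bile acid synthesis in liver, Cyp11b2, the aldosterone synthase, Cyp2a22, Cyp2g1 and Cyp2w1. A count of 0 allows up to 3 reads, which is 0.132 to 0.152 CPM in these libraries. The 10 members with the highest means held 89.2% and 92.4% of the members' reads in immune complex libraries and 90.3% and 90.9% in saline libraries.

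**Figure D1:**
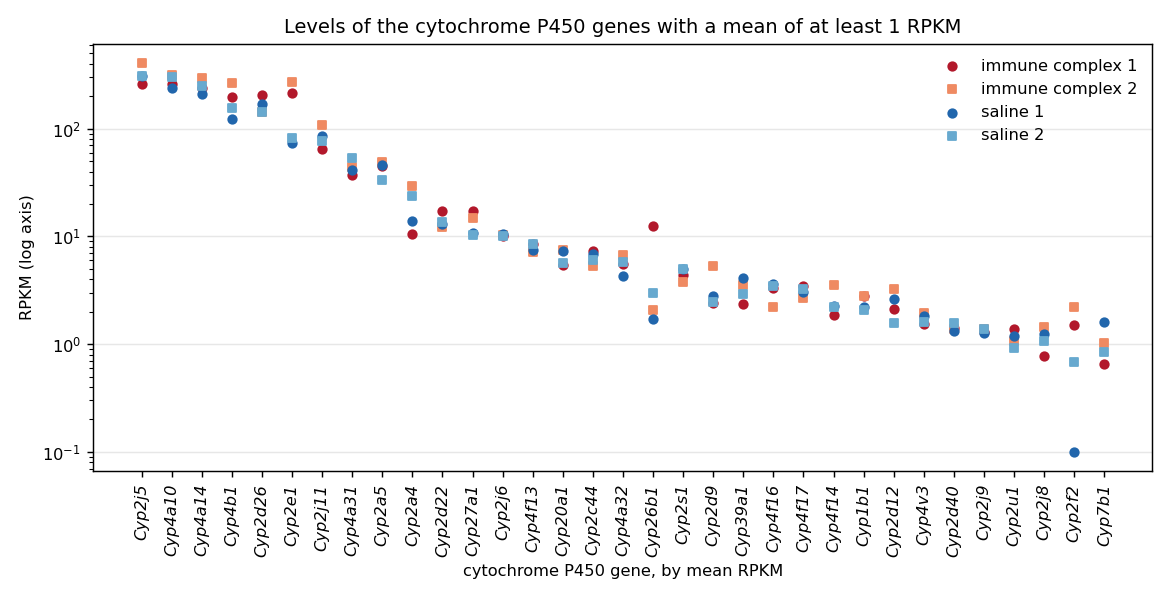
RPKM (log axis) of the 33 cytochrome P450 genes with a mean of at least 1 RPKM, in order of their mean, with 1 point for each library (2 immune complex, 2 saline). Points of the 4 libraries lie close together for most genes, and Cyp2e1, Cyp26b1 and Cyp2f2 show the widest gaps between libraries.

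The order at the top was close to the same in every library. Cyp2j5, an arachidonic acid epoxygenase of the proximal tubule, had rank 1 in 3 libraries and rank 2 in immune complex library 1, where Cyp4a10 had rank 1. Cyp2e1 had rank 4 in both immune complex libraries and ranks 7 and 6 in the saline libraries. Seen by class, the Cyp4 fatty acid hydroxylases summed to 759.1 and 946.3 RPKM in immune complex kidneys and 633.4 and 786.4 RPKM in saline kidneys. The Cyp2c and Cyp2j epoxygenases summed to 345.3 and 532.7 RPKM against 415.7 and 407.9 RPKM, and the remaining Cyp2 genes, which hold Cyp2e1, to 508.6 and 525.8 RPKM against 331.2 and 308.2 RPKM. The sums of the Cyp4 and epoxygenase classes overlapped between the groups, and that of the remaining Cyp2 genes did not. Of this last sum Cyp2e1 alone held 214.7 and 274.2 RPKM against 73.6 and 81.7 RPKM. The gap is therefore no result about the other genes of that class.

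**Figure D2:**
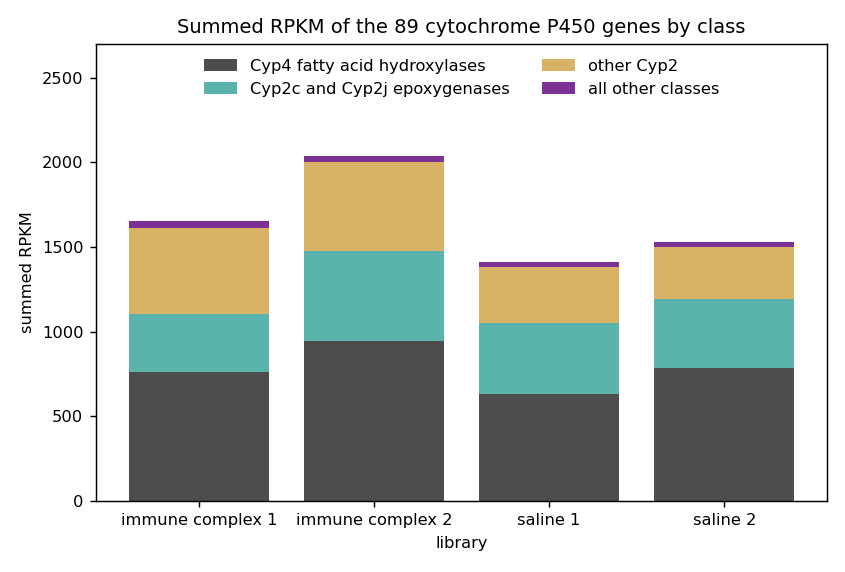
Summed RPKM of the 89 cytochrome P450 genes in each library, stacked by class. The total was 1656 and 2038 RPKM in the immune complex libraries and 1410 and 1530 RPKM in the saline libraries.

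Among the Cyp4 genes, the omega-hydroxylases Cyp4a10 and Cyp4a14, which are classic targets of the fatty acid sensor PPAR alpha, were among the 3 highest members in each library. Cyp4a10 stood at 586.4 and 709.7 CPM in immune complex kidneys and 501.4 and 660.5 CPM in saline kidneys, and Cyp4a14 at 641.7 and 797.1 CPM against 528.8 and 657.3 CPM. In both the groups overlapped, and the second library of each group was the higher one. The log2 differences were 0.16 ± 0.21 and 0.28 ± 0.21. Cyp4a31 stood at 107.2 and 123.3 CPM in immune complex kidneys and 108.9 and 150.9 CPM in saline kidneys (-0.17 ± 0.22), and Cyp4a32 at 12.2 and 15.3 CPM against 8.36 and 11.8 CPM (0.44 ± 0.26). The Cyp4f genes, whose family hydroxylates leukotriene B4 and other fatty acids, had low levels, led by Cyp4f13 at 33.5 and 28.9 CPM against 27.1 and 32.8 CPM in saline kidneys (0.06 ± 0.19). Cyp4f16 stood at 11.1 and 7.47 CPM in immune complex kidneys against 11.2 CPM in both saline libraries (-0.26 ± 0.26), and Cyp4f17, with 56.1% of its reads in introns, differed by 0.38 ± 0.22, and by 0.049 with exon reads only. Cyp4v3, the counterpart of the human retinal dystrophy gene CYP4V2, differed by 0.09 ± 0.22. Over the Cyp4 class 11 of 15 members had enough reads for the test, with 9 higher and 2 lower means in immune complex kidneys.

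The epoxygenases make epoxyeicosatrienoic acids from arachidonic acid. Cyp2j5 stood at 630.1 and 976.5 CPM in immune complex kidneys and at 709.1 and 727.4 CPM in saline kidneys, with the immune complex values on either side of the saline values (0.16 ± 0.24). Cyp2j11 had the same pattern, at 136.9 and 221.9 CPM against 165.0 and 154.5 CPM (0.17 ± 0.25). Without immune complex replicate 2 both differences were in the other direction (-0.19 and -0.22). Cyp2j6 was level across libraries, at 38.4 and 38.9 CPM against 38.2 and 37.1 CPM (0.04 ± 0.16). Cyp2j13 stood at 8.42 and 15.6 CPM against 4.67 and 8.04 CPM (0.92 ± 0.39, and 0.40 without immune complex replicate 2). It differed by 1.57 with exon reads only and by 1.45 with reads placed at 1 location. Its exon reads were 64 and 211 in immune complex libraries against 27 and 64 in saline libraries. Its reads placed at 1 location were 68 and 222 against 33 and 70. In neither count was immune complex library 1 above saline library 2. Of its reads 53.3% lay in introns and 50.1% were placed at 1 location. Cyp2j12, the only tested member of the class with a lower mean in immune complex kidneys, had 7 and 10 reads in immune complex libraries and 10 and 14 in saline libraries. Of the 15 Cyp2c genes, which are drug-metabolising enzymes of the liver, 1 exceeded 1 RPKM. That was Cyp2c44, an epoxygenase of the renal collecting duct, at 16.0 and 11.7 CPM against 13.9 and 12.2 CPM (0.09 ± 0.24). Cyp2c29 had the next lowest unadjusted p among the members after Cyp4b1 (log2 difference 1.58 ± 0.50, edgeR adjusted p = 0.941), but 94.4% of its reads lay in introns. Only 1 and 0 exon reads were counted in its immune complex libraries, against 0 and 2 in its saline libraries.

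The other Cyp2 genes oxidise drugs, odorants and steroids. Cyp2d26, of the subfamily of debrisoquine hydroxylases, stood at 359.9 and 245.1 CPM in immune complex kidneys and 275.6 and 237.7 CPM in saline kidneys (0.24 ± 0.23), and Cyp2d22 at 56.2 and 37.1 CPM against 37.0 and 39.3 CPM (0.29 ± 0.23). In each of them immune complex library 1 was the highest of the 4, and the groups overlapped. Cyp2a5, the coumarin hydroxylase, stood at 96.2 and 104.4 CPM against 92.4 and 68.8 CPM (0.32 ± 0.20), without overlap. Cyp2a4, a testosterone hydroxylase, stood at 18.5 and 51.7 CPM in immune complex kidneys and 23.0 and 40.9 CPM in saline kidneys (0.14 ± 0.49), so its libraries differed within each group more than between the groups. Cyp2s1, an enzyme of epithelia, stood at 22.7 and 19.6 CPM against 24.1 and 24.6 CPM (-0.20 ± 0.18). Cyp2f2, which bioactivates naphthalene in the airway, had few reads, 131 and 142 in immune complex libraries and 20 and 75 in saline libraries. It differed by 1.47 ± 0.55 (edgeR unadjusted p = 0.0332), by 0.82 without saline replicate 1 and by 2.66 without saline replicate 2. With exon reads only it differed by 2.31, and with reads placed at 1 location by 2.84, but few saline reads lay behind these values. Exon reads were 70 and 98 in immune complex libraries against 4 and 29 in saline libraries. Reads placed at 1 location were 43 and 63 against 1 and 13. Of the Cyp2f2 reads 32.6% were placed at 1 location and 45.4% lay in introns.

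**Figure D3:**
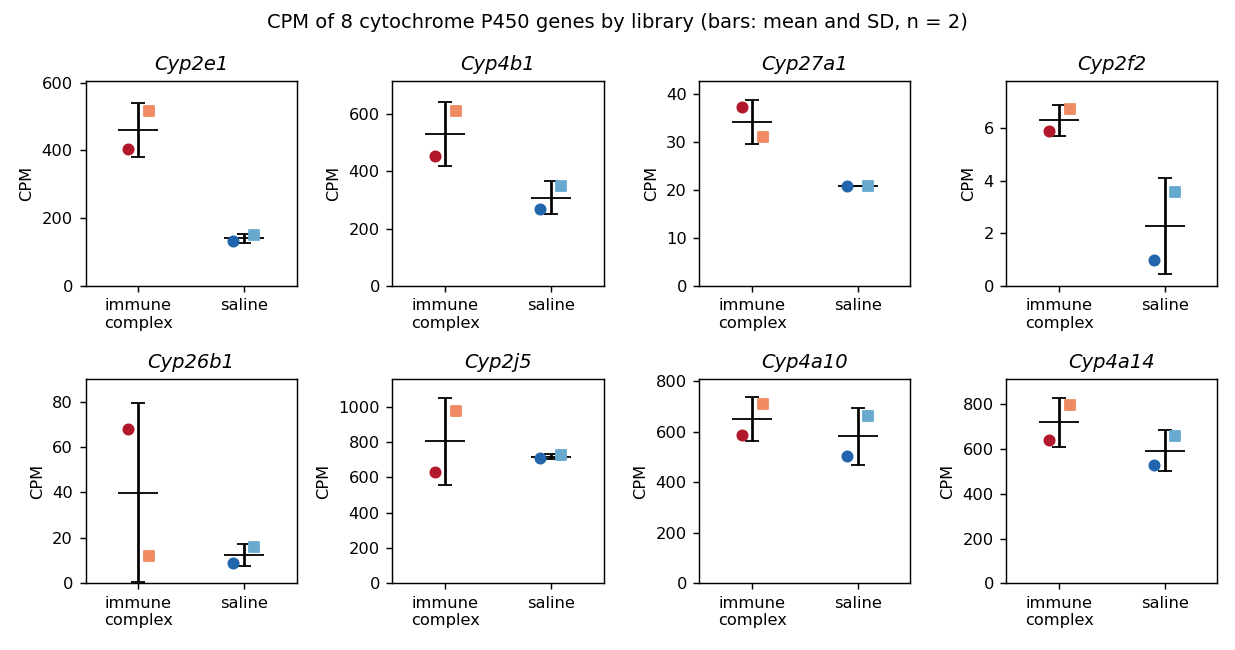
CPM of 8 cytochrome P450 genes in each library, with immune complex on the left and saline on the right of every panel; points are libraries (circle, replicate 1; square, replicate 2), and bars give the mean and SD (n = 2). Groups did not overlap for Cyp2e1, Cyp4b1, Cyp27a1 and Cyp2f2, and Cyp26b1 was high in immune complex library 1 alone.

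Retinoic acid is cleared by the Cyp26 enzymes, and Cyp26b1 was the one with appreciable reads. It stood at 67.8 and 12.0 CPM in immune complex kidneys and at 9.0 and 16.0 CPM in saline kidneys, so 1 library was high and the other lay between the saline values. Its log2 difference was 1.68 ± 0.73 and was -0.06 without immune complex replicate 1. Cyp26a1 and Cyp26c1 had at most 16 and 6 reads in any library.

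Of the sterol and bile acid enzymes besides Cyp27a1, the oxysterol hydroxylases Cyp39a1 and Cyp7b1 were low. Cyp39a1 stood at 8.38 and 12.4 CPM against 13.8 and 9.74 CPM in saline kidneys (-0.18 ± 0.29), and Cyp7b1 at 1.97 and 2.65 CPM against 3.64 and 2.46 CPM (-0.40 ± 0.36). Cyp46a1, the cholesterol hydroxylase of brain, differed by -0.01 ± 0.46, and Cyp8b1, which sets the bile acid mix in liver, had at most 1 read in a library. Cyp20a1, whose substrate is unknown, stood at 13.6 and 18.3 CPM against 16.8 and 13.7 CPM (0.06 ± 0.24).

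The Cyp1 enzymes are induced through the aryl hydrocarbon receptor. Cyp1b1, which oxidises polycyclic hydrocarbons and oestrogens, stood at 14.6 CPM in both immune complex libraries and at 10.9 and 10.5 CPM in saline libraries (0.44 ± 0.20, edgeR unadjusted p = 0.0623). Cyp1a1, the most inducible of them, had 34 and 31 reads in immune complex libraries and 28 and 32 in saline libraries, and Cyp1a2 had 1 read in all. The 7 Cyp3a genes, the main drug oxidases of liver and gut, were under 1 RPKM, with Cyp3a13 highest at 2.87 and 1.37 CPM against 1.72 and 1.84 CPM (0.25 ± 0.44).

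Steroid-making enzymes mark the adrenal gland, which lies on the kidney. Cyp11a1, which starts steroid synthesis, had 2 and 1 reads in immune complex libraries and 0 and 2 in saline libraries. Cyp11b1 and Cyp21a1 of the adrenal cortex had at most 1 read in any library, and Cyp11b2 had none. Cyp17a1 was the highest steroidogenic member by RPKM, with 4 and 6 reads against 4 and 7. Cyp2r1, the vitamin D 25-hydroxylase of liver, had 3 reads in each immune complex library and 2 and 4 in the saline libraries. These members had too few reads for the test.

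Several members are so alike in sequence that reads cannot always be told apart, which touches the levels given for the Cyp2a and Cyp4a genes. Low shares of reads placed at 1 location were not confined to these. Of 38 members with at least 100 reads, 13 had a share under 80%, among them Cyp2f2, Cyp4f16, Cyp4f17, Cyp4v3 and Cyp2j13. Cyp2j13 had only 80.3% coding identity with its closest member, and the reason for its low share was not tested. The coding sequences of Cyp2a4 and Cyp2a5 differed at 23 of 1482 bases (98.4% identity, GENCODE M21), and 55.4% and 60.2% of their reads were placed at 1 location. Cyp4a10 differed from Cyp4a32 at 43 and from Cyp4a31 at 52 of 1527 bases, and 69.5%, 57.3% and 78.0% of the reads of Cyp4a10, Cyp4a32 and Cyp4a31 were placed at 1 location. Cyp4a14 had 75.4% identity with its closest member, and 99.7% of its reads were placed at 1 location. The 60 coding bases with the most differences are shown for 2 of these pairs, to show where their reads are most separable, with the differing bases in capitals.
Cyp2a4, coding bases 596 to 655: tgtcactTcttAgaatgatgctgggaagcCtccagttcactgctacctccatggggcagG
Cyp2a5, coding bases 596 to 655: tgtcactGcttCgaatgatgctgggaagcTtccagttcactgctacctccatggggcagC
Cyp4a10, coding bases 200 to 259: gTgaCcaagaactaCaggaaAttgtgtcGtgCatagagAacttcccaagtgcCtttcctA
Cyp4a32, coding bases 200 to 259: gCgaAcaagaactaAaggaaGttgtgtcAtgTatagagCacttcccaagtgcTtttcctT
The first pair has 4 differing bases in this stretch and the second has 9. Restricting the fit to reads placed at 1 location kept the direction of each of the 28 named members it could test.

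**Figure D4:**
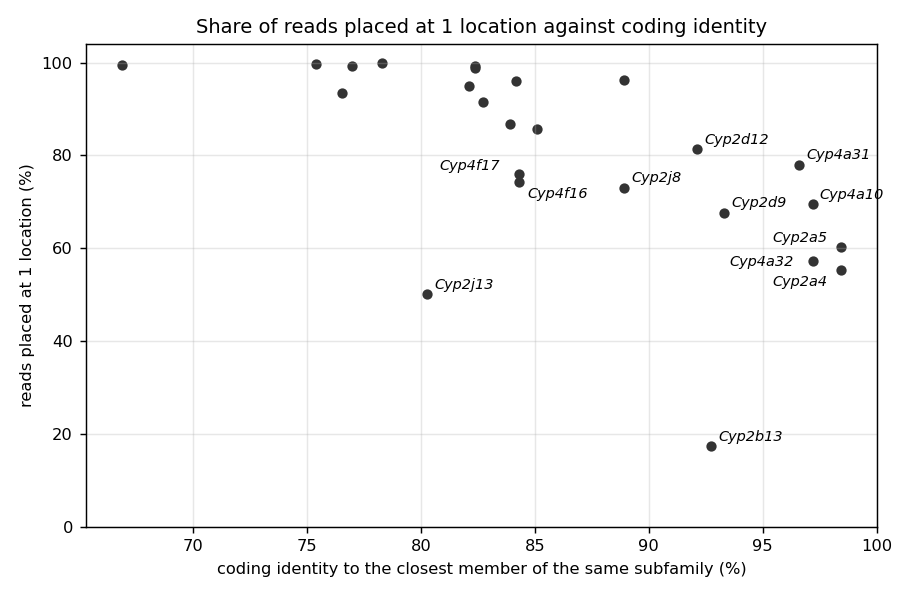
Share of reads placed at 1 location against coding identity to the closest member of the same subfamily, for the 25 cytochrome P450 genes with at least 100 reads over the 4 libraries and another member in their subfamily. Cyp2a4, Cyp2a5, Cyp4a10, Cyp4a31 and Cyp4a32 lie at over 95% identity and under 80% of reads, and Cyp2b13, with 17.3%, is the lowest.

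Over the whole family, 44 members had enough reads for the test and 45 did not. A member can have entered through the group where it was higher, so what follows describes the tested members and is no evidence for the family. The test called 0 members at an adjusted p under 0.05 in either direction, as it called 0% of all 16334 genes. At an unadjusted p under 0.05 there were 5 higher members (Cyp2e1, Cyp27a1, Cyp4b1, Cyp2c29 and Cyp2f2) and 0 lower ones, where 1.98% of all genes were higher and 2.60% lower. Groups did not overlap with immune complex above saline for 13 members, where the share over all genes was 15.4%, and with immune complex below saline for 4, where it was 14.6%. Mean levels were higher in immune complex kidneys for 36 of 44 members and lower for 8, against 51.9% and 48.1% of all genes, and the median log2 difference was 0.21 over the members and 0.01 over all genes. Without saline replicate 2 the test called 3 members higher (Cyp2e1, Cyp26b1 and Cyp2f2) and 0 lower, where 0.726% of all genes were called higher and 0.920% lower. That fit takes its spread from the immune complex group alone and assumes that the single saline library varies alike, and the library kept, saline 1, had the lowest adipocyte marker levels of the 4. With single libraries left out the median log2 difference of the tested members ranged from 0.16 to 0.39. In bulk RNA, more or fewer cells of a type and more or less RNA per cell cannot be told apart.

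**Figure D5:**
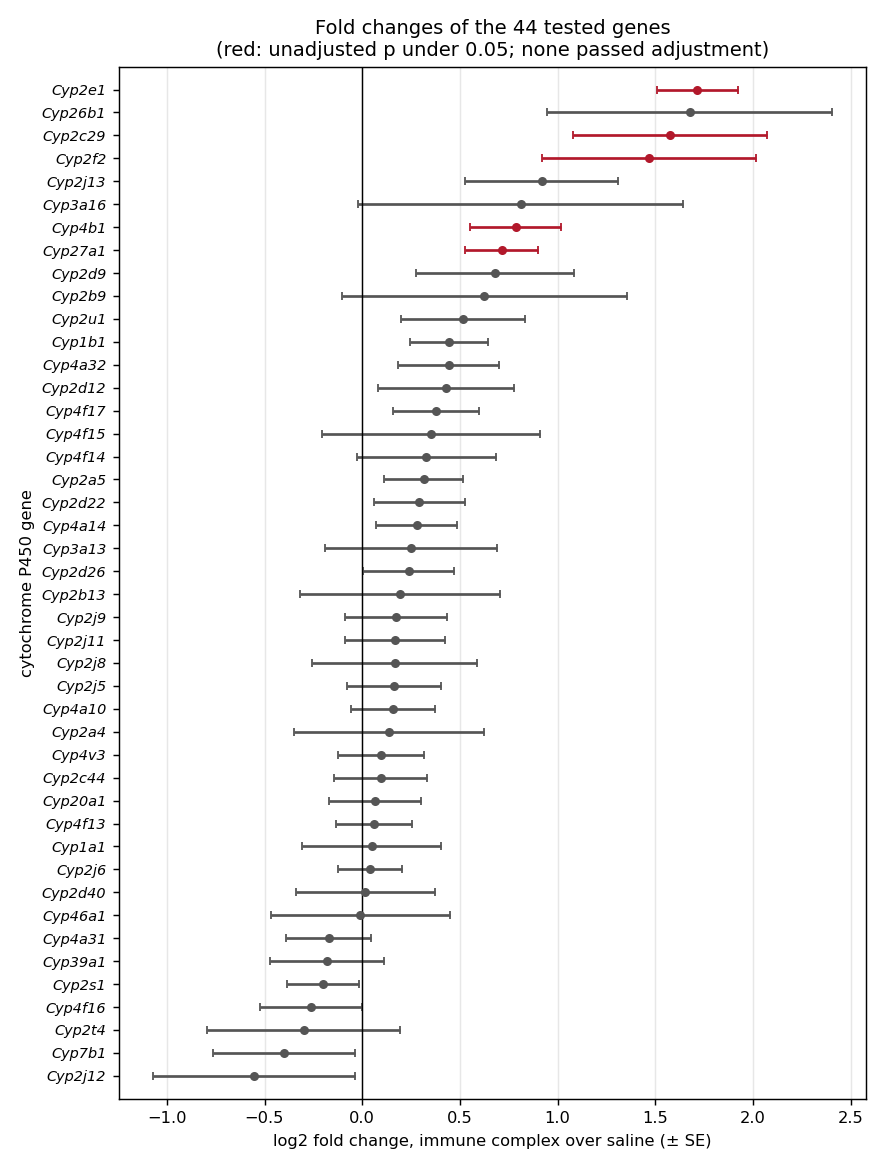
Log2 fold change, immune complex over saline, with its SE, of the 44 tested cytochrome P450 genes in order of size. Red marks the 5 members with an unadjusted p under 0.05, and 36 of the 44 points lie above 0.

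Genes that serve the P450 enzymes were set beside them from lists chosen with earlier results of these data known. Of 9 electron donors and partners 0 passed the test and 2 had higher means (median -0.01). Por, the reductase, differed by -0.38 ± 0.20 and its partner Cyb5a by 0.21 ± 0.17. Of 8 genes of haem synthesis 0 passed and 3 had higher means (median -0.06), with the first enzyme Alas1 at 0.23 ± 0.20 and Alad at -0.21 ± 0.23. Of 19 tested receptors and factors that control P450 genes 0 passed and 10 had higher means (median 0.04). Pparg, the fat cell receptor, differed by 1.27 ± 0.55, and Ahrr, the repressor of the aryl hydrocarbon receptor, by -1.55 ± 0.66. Ahrr had few reads, 10 and 10 in immune complex libraries against 43 and 13 in saline libraries, so saline library 1 stood apart. Of 14 targets of PPAR alpha 0 passed and 4 had higher means (median -0.18), with the thioesterase Acot2 at -0.52 ± 0.24. Among 10 tested genes that act on eicosanoids and epoxides 0 passed and 4 had higher means (median -0.12). Ephx1, which hydrolyses drug epoxides, differed by -0.66 ± 0.24, and Ephx2, which hydrolyses the lipid epoxides of the Cyp2j and Cyp2c enzymes, by 0.33 ± 0.17. Of 13 clock genes and clock-driven factors 0 passed and 8 had higher means (median 0.09), with the repressor Nr1d1 at -0.99 ± 0.22 and the activator Arntl at 1.19 ± 0.46.

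Markers of the cells that could carry P450 transcripts were read in the same libraries. The 16 proximal tubule markers summed to 27140 and 31850 CPM in immune complex kidneys and 24610 and 28838 CPM in saline kidneys, with 8 higher and 8 lower means and a median log2 difference of 0.01. Slc5a12, a lactate transporter with the lowest p of that list, differed by 0.48 ± 0.23. All 12 adipocyte markers had higher means in immune complex kidneys and none overlapped between the groups (median 2.44). Their summed levels were 3933 and 3322 CPM against 964 and 2249 CPM. Scd1 alone held 1432 and 1443 CPM of these sums against 771 and 1379 CPM, so it made up most of the saline sums. Lep, which encodes leptin, differed by 4.15 ± 0.98 and Fabp4, a fatty acid carrier, by 1.95 ± 0.62. Fat tissue also expresses Cyp2e1. In saline library 1 the fat hormone gene Adipoq stood at 0.148 CPM and Cyp2e1 at 130.9 CPM, and in saline library 2 Adipoq stood at 24.9 CPM and Cyp2e1 at 149.4 CPM. Between the immune complex libraries the summed adipocyte level was higher in the first and Cyp2e1 was higher in the second. Single adipocyte markers went both ways there. Adipoq stood at 87.8 and 78.6 CPM and Cfd at 421.0 and 241.4 CPM. Cidec stood at 146.6 and 155.0 CPM and Lep at 6.18 and 12.8 CPM, higher in the second as Cyp2e1 was. Cyp2f2 was lowest in saline library 1, as the adipocyte markers were. So were Cyp2e1, Cyp4b1, Cyp27a1, Cyp2c29, Cyp26b1, Cyp2j13, Cyp4a10 and Cyp4a14, although the saline values of Cyp27a1 were almost the same. Other members, such as Cyp2j5, Cyp2j11, Cyp2d26 and Cyp2a5, were lowest in another library. The part of adipocyte RNA in the P450 differences was not tested. Of the 6 adrenal markers, the defining factor Nr5a1 had at most 0.0473 CPM, Hsd3b1 at most 0.378 CPM, and the list summed to 16.8 and 14.0 CPM against 5.31 and 7.71 CPM. In immune complex kidneys most of that sum was Mrap, at 11.7 and 8.70 CPM against 0.197 and 3.69 CPM, and Mrap (2.38 ± 0.90) and Mc2r (1.55 ± 0.58), which fat cells also express, had the lowest p. The 9 hepatocyte markers summed to 77.7 and 82.9 CPM in immune complex kidneys against 61.9 and 85.1 CPM in saline kidneys, with Alb, the albumin gene, at -0.58 ± 0.28 and Serpina1a at 0.38 ± 0.17.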

How the data were processed

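Per the labels' protocols, kidney tissue was kept in RNAlater, and a service company extracted RNA and made Illumina libraries. STAR 2.5.2b, DESeq2 and GRCm38 are listed, without roles, in the submitters' processing notes, and the sources used here state no read counter, annotation release or strand setting. Per the file headers, each deposited sample table gives counts per gene (all reads, those placed uniquely, and those in exons or introns) and the authors' RPKM. The authors' deposited comparison table adds a log2 fold change per gene with raw and adjusted p-values, and a mean signal and score that were not used; its sign is saline over immune complex, opposite to the read ratio for all 80 called genes.

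The main test was edgeR 4.0.16 under R 4.3.3, with the filter filterByExpr, TMM scaling and the two-sided quasi-likelihood test of glmQLFit and glmQLFTest, on total gene reads of 4 libraries (19675879 to 22791960 reads each) without a block, with Benjamini-Hochberg adjustment over 16334 genes at 0.05. The code was tested on simulated data. CPM uses TMM-scaled library sizes, and an SE is the log2 difference over the square root of F. Alternatives were DESeq2 1.42.0 (test and size factors), limma-voom 3.58.1, no filter on low counts, exon reads, unique reads, leaving out each library and a replicate block. Intron reads add unspliced RNA and reads of overlapping genes. Members with a mean of at least 10 CPM, the 6 lowest p-values per direction and the highest RPKM per class are named, with up to 2 genes per other list (some are not reported here), and further genes were named after their values were seen. The members, lists and rule were chosen with earlier results of these data known. Coding sequences are the longest coding transcripts of GENCODE M21, matched by gene ID for 89 of 89 members. Promoters come from RefSeq by symbol; the letters of HNF1 and of the PPAR repeat were also searched and are not reported here.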

Additional observations from a re-analysis of the deposited data

How the results depend on the processing

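No member passed the adjusted threshold in the lower direction under any alternative; DESeq2 and the replicate block each called 1 member higher (Cyp2e1, adjusted p = 0.00817 with the block), and leaving out single libraries called 0 to 3. The labels do not say that replicate numbers pair samples, and same-numbered libraries deviated in opposite ways (r = -0.13 across 16334 genes), so a crossed replicate block was added after seeing the data, which also called 1. Over the alternatives the Cyp2e1 difference ranged from 1.53 to 1.88. Members with an unadjusted p under 0.05 numbered 2 to 11 higher and 0 to 1 lower when single libraries were left out. Groups did not overlap for 22 higher and 9 lower members with DESeq2 and without a filter, which test more members, for 7 and 1 with exon reads, for 1 lower with unique reads, and for 19 to 29 higher and 6 to 14 lower with single libraries left out. With a lone library in a group, overlap is less likely, because its value need only lie outside the range of the other group. No share over all genes was set beside the counts of these alternatives, so they are no result about the members. The median difference with single libraries left out ranged from 0.16 to 0.39. Of 30 named members tested, 16 kept their sign under each of the 11 alternatives that could test them (Cyp2c29 and Cyp2j12 had too few exon or unique reads), and 14 changed it when a library was left out, where the lone library of a group is assumed to vary like the other group. With single libraries left out, the log2 differences of these 14 ranged as follows: Cyp20a1 from -0.17 to 0.26, Cyp26b1 from -0.058 to 2.44, Cyp2a4 from -0.79 to 0.70, Cyp2c44 from -0.15 to 0.30, Cyp2d22 from -0.037 to 0.56, Cyp2d26 from -0.066 to 0.49, Cyp2j11 from -0.22 to 0.47, Cyp2j5 from -0.19 to 0.44, Cyp39a1 from -0.49 to 0.092, Cyp3a13 from -0.38 to 0.68, Cyp4a10 from -0.029 to 0.36, Cyp4a31 from -0.39 to 0.071, Cyp4f13 from -0.074 to 0.20, Cyp4v3 from -0.045 to 0.22. The cause of these sign changes was not tested. Depth limits the 40 members under 1 RPKM with 10 or fewer reads in every library.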

Other observations

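Of the 84 members with any read, 30 had at least 50% of their reads in introns. Cyp2b13, which in mouse liver is expressed mainly in females, had 32 and 65 reads in immune complex libraries and 27 and 55 in saline libraries. Of these 98.3% were intronic and 17.3% were placed at 1 location. Cyp3a16 had 7 and 42 reads in immune complex libraries and 9 and 18 in saline libraries, and 100% of them lay in introns. Both genes were chosen after their values were seen.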
